A study of Mus musculus with 12 samples.

Results

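The 47 genes described here encode proteins that detect, signal and repair DNA damage, and they were chosen by name from the 56980 gene IDs of a mouse RNA-seq count table. All 47 were found by symbol, with claspin under its mouse symbol Clspn, and all 47 were among the 16648 genes abundant enough to be tested. They comprise 6 checkpoint genes, 4 genes of proteins that mark broken chromatin, and 14 genes of homologous recombination. End joining has 6, single-strand break and base excision repair 4, Fanconi crosslink repair 5, nucleotide excision repair 7 and mismatch repair 1 (Msh6).

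Double-strand breaks are sensed by the ATM kinase and stretches of single-stranded DNA by ATR, and both pass the signal to the checkpoint kinases CHK2 and CHK1, which hold the cell cycle. Breaks are then either rejoined end to end, in any phase of the cycle, or copied from the sister chromatid by homologous recombination, which needs S or G2 phase and BRCA1 and BRCA2. Crosslinks, bulky adducts, damaged bases and mispaired bases have pathways of their own.

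The cells were NIH/3T3, an immortalised line of mouse embryonic fibroblasts, labelled wild type in genotype, so each group is a treatment of 1 cell line. They received carfilzomib (CFZ, 200 nM), an irreversible inhibitor of the proteasome, doxorubicin (DOX, 5 µM), an anthracycline that intercalates into DNA and traps topoisomerase II on breaks, both drugs at those doses (CFZ-DOX), or the vehicle dimethyl sulfoxide (DMSO), all for 8 h. Each group had 3 libraries of polyadenylated RNA. Nothing in the labels says that replicates were grown apart, so each p-value reflects the spread of these libraries alone, which may be technical.

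Libraries held 28278879 to 42033993 counts. Scaling factors stepped up from replicate 1 to replicate 3, at 0.879, 0.997 and 1.17 with DOX and 0.727, 0.851 and 1.04 with CFZ-DOX. By chi-square per degree of freedom, replicates 1 and 3 differed most, at 104 with DOX and 107.5 with CFZ-DOX. Replicate 2 lay between them, at 45.14 from replicate 1 and 48.75 from replicate 3 with DOX, and 52.74 and 61.38 with CFZ-DOX. Ribosomal protein genes took 3.98 to 4.48% of counts with CFZ, 6.81 to 7.38% with DOX and 10.1 to 10.8% with CFZ-DOX, against 4.06 to 4.41% with DMSO. Of 12 fibroblast markers 11 averaged at least 1 CPM (counts per 1000000 counts) in every group, and their sum ranged over 17900 to 27800 CPM with CFZ, 28500 to 65800 with DOX, 42000 to 104000 with CFZ-DOX and 24600 to 31900 with DMSO. Summed markers of epithelial, macrophage, endothelial, myoblast and adipocyte cells reached at most 14.4 CPM, for the 4 macrophage markers with CFZ-DOX, where their sum was 11.1 to 14.4 CPM against 1.19 to 1.42 CPM with DMSO. In each group only 1 of these 4 markers averaged at least 1 CPM.

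Most of these genes were lower with doxorubicin. With DOX, 29 of the 47 fell and 2 rose relative to DMSO, at an adjusted p under 0.05 in edgeR's quasi-likelihood test, where 31.3% of all tested genes fell and 36.1% rose. With CFZ-DOX, 30 fell and 5 rose, where 35.7% of all genes fell and 39.3% rose. With CFZ alone 14 fell and 7 rose, where 14.4% of all genes fell and 14.4% rose. The median log2 fold change of the 47 genes was -0.22 with CFZ, -0.70 with DOX and -0.89 for both drugs, against -0.01, 0.14 and 0.09 over all tested genes. In RNA from whole cultures, fewer cells of a kind and less RNA per cell cannot be told apart.

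A fall of at least 2-fold was called for 17 of 47 with DOX and 17 of 47 with CFZ-DOX, against 19.3 and 24.3% of all genes, and for 2 with CFZ, against 6.51% of all genes. No repair gene rose 2-fold with DOX, where 23.4% of all genes did. The genes that fell with both DOX and CFZ-DOX numbered 27, and 12 of these also fell with CFZ, although the comparisons share the DMSO libraries. The share of all genes with such joint falls was not counted. Values of the drug group and of DMSO did not overlap for 34 of the 47 genes with CFZ, for 36 with DOX and for 37 with CFZ-DOX, where 56, 72.5 and 76.4% of all genes did not. No call was made in any of the 3 comparisons for 8 genes, namely Parp1, Rad50, Rnf8, Xpc, Xrcc1, Xrcc4, Xrcc5 and Xrcc6. The share of all genes without a call in the 3 was not counted either.

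**Figure D1:**
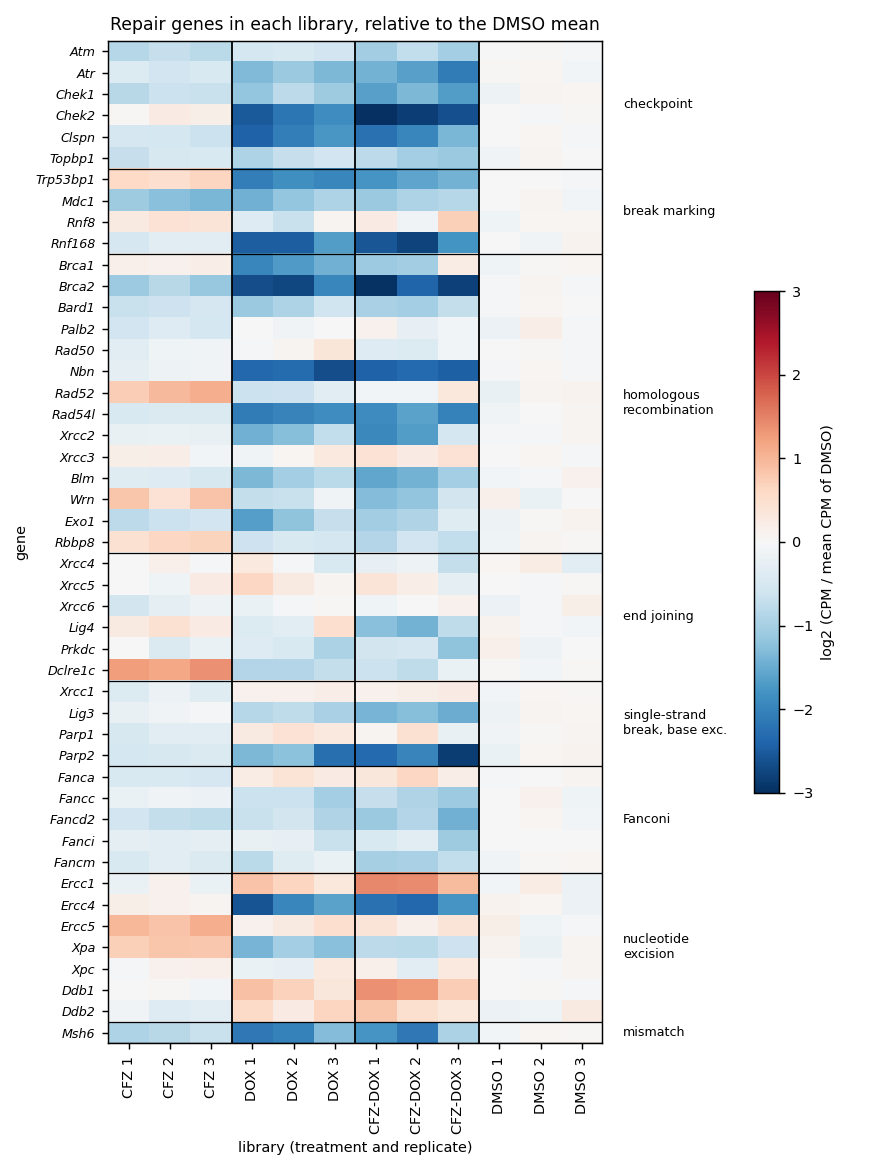
Log2 of CPM over the mean DMSO CPM, for the 47 genes in rows, grouped by role, and the 12 libraries in columns. Blue is below and red above the DMSO mean, and most rows are blue in the DOX and CFZ-DOX columns, with Ercc1 and Ddb1 red.

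The counts depended on how libraries were scaled. Scaling to the ribosomal protein genes moved the median of all genes by -0.86 with DOX, -1.64 with CFZ-DOX and -0.09 with CFZ, and upper-quartile scaling moved it by 0.38, 0.50 and -0.05. Scaling to library size moved it by -0.12 with DOX and -0.35 with CFZ-DOX, and size factors of the DESeq2 type by 0.10 with CFZ-DOX. Of the repair genes, 22 fell with DOX and 23 with CFZ-DOX under every one of the 5 scalings, where 22.3 and 24.8% of all genes did, and none rose under all 5, where 13.5 and 11.2% of all genes did. With CFZ, 9 fell and 4 rose under all 5, where 12% and 7.93% of all genes did.

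**Figure D2:**
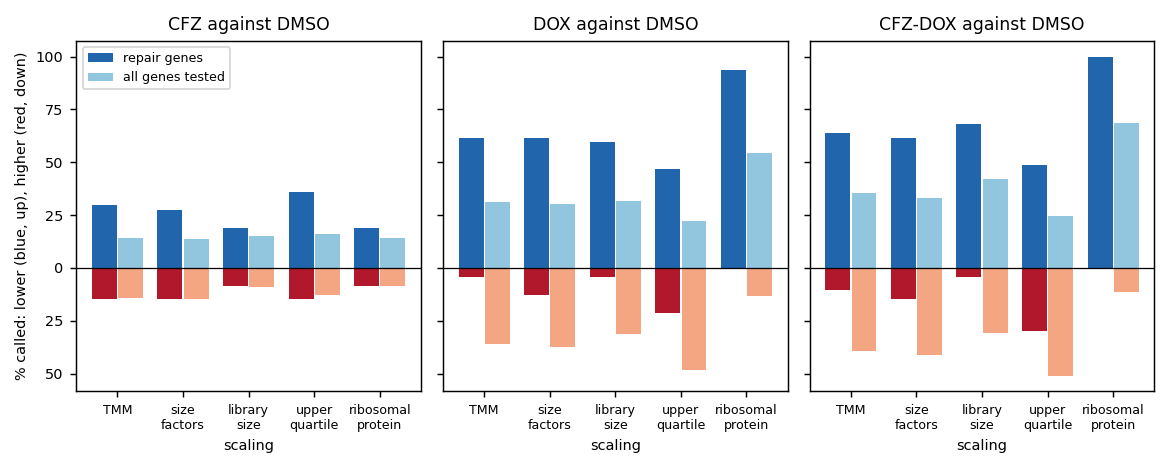
Percentage of genes called lower (blue, upward) and higher (red, downward) against DMSO under 5 scalings, for the 47 repair genes (dark) and all tested genes (light). With DOX the dark blue bar stands above the light one under each scaling, from 22 of 47 genes with upper-quartile scaling to 44 with ribosomal protein scaling.

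Without DOX replicate 3 and CFZ-DOX replicate 3 the counts were 33 lower and 5 higher with DOX, and 32 lower and 4 higher with CFZ-DOX. The 12 libraries share 1 estimate of spread, and the CFZ count then became 23 lower and 8 higher. Leaving out single libraries of the groups compared in turn, 26 of the 29 falls with DOX and 29 of the 30 with CFZ-DOX were called each time, but only 5 of the 14 with CFZ: Atm, Chek1, Brca2, Mdc1 and Fancd2. Spread in these fits was also estimated over all libraries left, those with doxorubicin included. A fit of the CFZ and DMSO libraries alone called 25 lower and 9 higher, where 7925 of all genes were called. Replicate numbers paired the libraries in the DOX comparison, and with the number as a block 31 fell and 6 rose, the added rises being Fanca, Parp1, Ercc5 and Ddb2, at adjusted p from 0.0363 to 0.0402, and the added falls Fanci and Wrn. They paired the CFZ and DMSO libraries too, and there the block gave 19 falls, the added ones being Xrcc1, Xrcc6, Fancm, Blm and Parp1.

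Promoters of 4 of the genes are shown: Chek2 and Brca2 had the largest falls with CFZ-DOX and Ercc1 the largest rise, and Clspn, which fell with DOX and CFZ-DOX, was picked for display after its letters were seen. They run from 250 bases before to 50 after the start in RefSeq's build GRCm38.p6, all on the plus strand. Clspn lies at chr4:126556730-126557029, Chek2 at chr5:110839733-110840032, Brca2 at chr5:150522371-150522670 and Ercc1 at chr7:19344821-19345120. Capitals mark the letters GCGCGAAA, one of 4 spellings searched for the E2F site of S phase promoters, and CCAAT or its complement ATTGG, the CCAAT box.
Clspn: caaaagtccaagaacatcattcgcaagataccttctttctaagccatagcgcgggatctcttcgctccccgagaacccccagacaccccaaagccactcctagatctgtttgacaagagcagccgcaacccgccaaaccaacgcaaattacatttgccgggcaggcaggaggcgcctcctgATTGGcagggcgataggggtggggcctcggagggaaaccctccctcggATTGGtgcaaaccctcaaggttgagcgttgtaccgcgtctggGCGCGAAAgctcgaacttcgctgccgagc
Chek2: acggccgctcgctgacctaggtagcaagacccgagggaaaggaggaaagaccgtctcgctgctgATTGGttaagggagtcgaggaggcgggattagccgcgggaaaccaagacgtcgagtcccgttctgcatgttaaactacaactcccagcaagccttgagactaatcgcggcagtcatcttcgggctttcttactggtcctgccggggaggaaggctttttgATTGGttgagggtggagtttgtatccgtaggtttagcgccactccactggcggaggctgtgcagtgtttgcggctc
Brca2: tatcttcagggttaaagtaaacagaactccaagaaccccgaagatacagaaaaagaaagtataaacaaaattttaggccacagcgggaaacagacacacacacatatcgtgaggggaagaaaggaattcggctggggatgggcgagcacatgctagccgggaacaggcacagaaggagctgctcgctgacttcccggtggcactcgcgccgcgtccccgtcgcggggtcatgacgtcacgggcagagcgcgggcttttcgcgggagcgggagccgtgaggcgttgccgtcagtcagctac
Ercc1: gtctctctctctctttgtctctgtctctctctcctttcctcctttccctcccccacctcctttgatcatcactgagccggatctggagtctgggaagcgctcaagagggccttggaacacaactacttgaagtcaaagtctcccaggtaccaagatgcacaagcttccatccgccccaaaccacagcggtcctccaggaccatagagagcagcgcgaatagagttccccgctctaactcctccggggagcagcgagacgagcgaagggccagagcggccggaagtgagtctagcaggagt
The E2F letters (TTTCGCGC, TTTGGCGC and their complements GCGCGAAA and GCGCCAAA) occurred in 2 of 39 promoters matched for 37 of the genes, those of Clspn and Topbp1, or 5.13%, against 0.813% of all 32851 promoters. CCAAT or ATTGG occurred in 56.4% of the repair genes' promoters and 37.4% of all promoters, and the cell cycle homology letters TTTGAA or TTCAAA in 7.69 and 17.9%. Counted from the start to the first letter, Chek2 has CCAAT letters at -186 and -26 and Clspn at -69 and -21, and neither Brca2 nor Ercc1 holds any of the searched letters in this window. Other spellings of the E2F site were not searched, so promoters without these letters may still hold such a site.

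All 6 checkpoint genes fell with DOX and with CFZ-DOX, where 31.3 and 35.7% of all genes did. With CFZ 5 of the 6, all but Chek2, fell, where 14.4% of all genes did. The CFZ falls of Atr, Clspn and Topbp1 were lost without single libraries. The class median was -1.12 with DOX and -1.61 with CFZ-DOX and remained below 0 under each scaling. Chek2, the kinase downstream of ATM (chr5:110987845-111022011 in GRCm39, plus strand), fell furthest. It had 2.27, 2.90 and 3.56 CPM in the DOX libraries and 1.54, 1.82 and 2.07 CPM in the CFZ-DOX libraries, against 13.1, 12.7 and 13.2 CPM in the DMSO libraries. Every library with doxorubicin thus lay far below every DMSO library, a log2 fold change of -2.15 ± 0.19 (SE, adjusted p = 3.33e-07) with DOX and -2.84 ± 0.20 (2.70e-08) with CFZ-DOX. With CFZ alone Chek2 had 13.2, 15.3 and 14.7 CPM, overlapping DMSO, and was not called (0.15 ± 0.18, adjusted p = 0.58).

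Clspn, the adaptor through which ATR activates CHK1, had 22.8, 29.1 and 36.7 CPM with DOX, against 123.7, 127.1 and 116.8 CPM with DMSO. Its log2 fold change was -2.05 ± 0.21 (adjusted p = 1.11e-06) with DOX, -1.80 ± 0.21 with CFZ-DOX and -0.55 ± 0.20 with CFZ, where the adjusted p of 0.0494 was lost without single libraries. Atr, the kinase upstream of CHK1, had smaller fold changes than Clspn. It averaged 25.6 ± 1.498 CPM with CFZ, 15.1 ± 1.38 CPM with DOX and 11.2 ± 2.56 CPM with CFZ-DOX, against 35.9 ± 1.904 CPM with DMSO (SD, n = 3 each), and its groups with drug did not overlap DMSO. Atr fell by 0.49 on the log2 scale with CFZ (adjusted p = 0.0386, lost without single libraries), by 1.25 with DOX and by 1.69 with CFZ-DOX.

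Atm, in contrast to the other 5 checkpoint genes, had its lowest single-drug mean with CFZ: 26.2, 29.1 and 27.1 CPM with CFZ, 32.8, 34.4 and 31.6 CPM with DOX and 23.0, 28.5 and 23.4 CPM with CFZ-DOX, against 47.2, 48.7 and 45.7 CPM with DMSO. All libraries with a drug were below all DMSO libraries. The log2 fold change was -0.78 ± 0.13 (adjusted p = 0.000421) for CFZ, -0.52 ± 0.13 (0.0023) for DOX and -0.92 ± 0.13 (1.49e-05) for CFZ-DOX. The DOX call was lost under upper-quartile scaling, at -0.14. Chek1, the kinase downstream of ATR, averaged 28.2 ± 2.08, 23.1 ± 3.14 and 15.8 ± 1.96 CPM with CFZ, DOX and CFZ-DOX, against 46.0 ± 4.10 CPM with DMSO (SD, n = 3 each). Its log2 fold changes of -0.71, -0.99 and -1.54 all passed the test. Topbp1, which activates ATR at stalled forks, fell by 0.54, 0.73 and 0.97 with CFZ, DOX and CFZ-DOX. Its CFZ call was lost without CFZ replicate 1 (adjusted p = 0.0562).

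**Figure D3:**
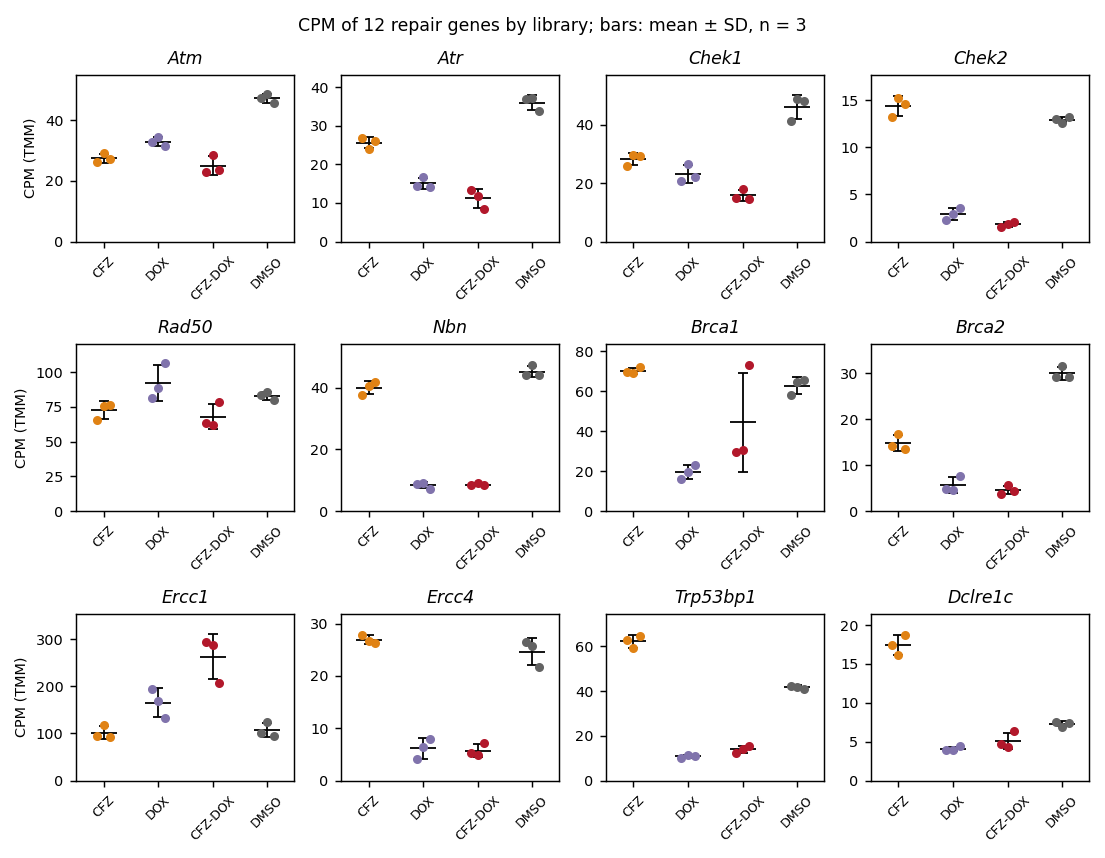
CPM of 12 repair genes in each library, with the mean and SD (n = 3) of CFZ, DOX, CFZ-DOX and DMSO as bars. Chek2, Nbn, Ercc4 and Brca2 are low in every library with DOX, Dclre1c and Trp53bp1 are high with CFZ, and 1 CFZ-DOX library of Brca1 stands at 73.1 CPM.

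Among the genes of proteins that mark the chromatin around a break, 3 of 4 fell with DOX and with CFZ-DOX, where 31.3 and 35.7% of all genes did. The class median was below 0 under each scaling. Rnf168, a ubiquitin ligase that marks histone H2A near breaks, had 11.1, 11.1 and 19.2 CPM with DOX and 10.5, 9.03 and 17.8 CPM with CFZ-DOX, against 61.1, 57.4 and 66.5 CPM with DMSO. The log2 fold changes were -2.16 ± 0.25 and -2.31 ± 0.25 (SE, adjusted p = 4.49e-06 and 1.57e-06). Replicate 3 of each drug group was the highest of its group but stayed far below DMSO. Rnf8, the ligase that acts before Rnf168, was not called in any comparison with DMSO and averaged 3.27 ± 0.887 CPM with DOX, against 3.98 ± 0.274 CPM with DMSO (SD, n = 3 each).

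Trp53bp1 (53BP1), which shields breaks from resection and favours end joining, moved in opposite directions with the single drugs. It had 62.7, 59.2 and 64.8 CPM with CFZ, 9.96, 11.65 and 10.8 CPM with DOX and 12.1, 14.01 and 15.5 CPM with CFZ-DOX, against 42.3, 42 and 40.8 CPM with DMSO. The CFZ libraries were all above and the others with drug all below DMSO. The log2 fold change was 0.58 ± 0.13 with CFZ (adjusted p = 0.00406, lost under ribosomal protein scaling at 0.122), -1.95 ± 0.13 with DOX (4.58e-08) and -1.59 ± 0.13 with CFZ-DOX (1.25e-07). Exons of the neighbour Tubgcp4 overlap 15.04% of its exon length on the other strand, and the strand setting of the counting was not given in the sources used here.

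Mdc1, the scaffold that binds phosphorylated histone H2AX, fell to much the same level in each drug group. It had 54.5, 47.8 and 44.5 CPM with CFZ, 42.2, 51.2 and 60.5 CPM with DOX and 52.8, 60.0 and 63.1 CPM with CFZ-DOX, against 114.0, 121.5 and 109.0 CPM with DMSO. Its log2 fold changes were -1.23 ± 0.14, -1.16 ± 0.14 and -0.97 ± 0.14, with adjusted p at or under 2.76e-05. The effect of both drugs was smaller than the sum of the single effects, -0.97 against -2.39, and the interaction of 1.42 ± 0.20 passed the test (adjusted p = 0.000418) but not under ribosomal protein scaling (0.72, adjusted p = 0.127).

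Homologous recombination genes fell in 10 of 14 cases with DOX, with no rise, where 31.3% of all genes fell and 36.1% rose. With CFZ-DOX 9 of 14 fell and 1 rose, where 35.7% of all genes fell and 39.3% rose. The class median of the recombination genes, -0.95 and -0.82, was below 0 under each scaling. Nbn, the subunit of the break-sensing complex that recruits ATM (chr4:15957925-15992589, plus strand), had 8.83, 9.14 and 7.19 CPM with DOX and 8.37, 8.99 and 8.29 CPM with CFZ-DOX, against 44.0, 47.2 and 44.3 CPM with DMSO. The 6 libraries with doxorubicin were close together, and the log2 fold change was -2.43 ± 0.14 (adjusted p = 1.47e-08) with DOX and -2.40 ± 0.14 (7.60e-09) with CFZ-DOX. Nbn was not called with CFZ, at 40.0 ± 2.10 CPM against 45.1 ± 1.80 CPM (SD, n = 3 each).

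Rad50, the ATPase of the same complex, was not called in any comparison with DMSO. It had 81.4, 88.5 and 107.0 CPM with DOX, which overlapped the 83.5, 85.5 and 80.2 CPM with DMSO, and a log2 fold change of 0.15 ± 0.14. Per length of exon, Nbn stood at 3.31 ± 0.412 RPKM and Rad50 at 17.2 ± 2.46 RPKM with DOX, against 17.8 ± 0.71 and 15.5 ± 0.505 RPKM with DMSO (SD, n = 3 each). The level of Nbn RNA was thus close to that of Rad50 with DMSO and well below it with DOX.

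Brca2, which loads the recombinase onto DNA, had 14.2, 16.7 and 13.6 CPM with CFZ, 4.71, 4.52 and 7.72 CPM with DOX and 3.81, 5.67 and 4.28 CPM with CFZ-DOX, against 29.1, 31.6 and 29.1 CPM with DMSO. Every library with a drug was below every DMSO library, and the log2 fold changes were -1.01 ± 0.21, -2.40 ± 0.22 and -2.71 ± 0.22 (adjusted p = 0.00227, 4.37e-07 and 1.05e-07). Its partner Palb2, which bridges BRCA1 and BRCA2, was not called with DOX (-0.03 ± 0.17, adjusted p = 0.876). Bard1, the partner of BRCA1 in its ubiquitin ligase, fell by 0.59, 0.85 and 0.90 on the log2 scale with CFZ, DOX and CFZ-DOX. Its CFZ call was lost without CFZ replicate 1 (adjusted p = 0.0514).

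Brca1 fell with DOX but was spread widely with CFZ-DOX. It had 16.3, 19.4 and 23.2 CPM with DOX, against 57.9, 64.7 and 65.8 CPM with DMSO, a log2 fold change of -1.68 ± 0.28 (adjusted p = 0.000101). With CFZ-DOX the values were 29.4, 30.6 and 73.1 CPM, the third above every DMSO library, and the log2 fold change of -0.50 ± 0.27 was not called (adjusted p = 0.105). Without CFZ-DOX replicate 3 it became -1.07 and was called, and limma-voom called it at -0.62 with all libraries (adjusted p = 0.0384). CFZ-DOX against DOX gave 1.18 ± 0.27 (adjusted p = 0.0081), which became 0.61 without CFZ-DOX replicate 3, and CFZ-DOX against CFZ gave -0.66, which became -1.23 without it. With CFZ, at 69.7, 69.2 and 72.0 CPM, Brca1 was not called.

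The remaining recombination genes covered strand exchange, resection and helicases. Rad54l, a motor protein of strand exchange, averaged 33.6 ± 0.199 CPM with CFZ, 11.5 ± 0.930 CPM with DOX and 12.8 ± 1.98 CPM with CFZ-DOX, against 45.6 ± 2.84 CPM with DMSO (SD, n = 3 each). Its log2 fold change was -1.98 with DOX, -1.83 with CFZ-DOX and -0.44 with CFZ (adjusted p = 0.029, lost without single libraries). Lrrc41 overlaps 15.36% of its exon length on the other strand. The helicase gene Blm fell by 1.05 with DOX and by 1.31 with CFZ-DOX, Xrcc2 by 1.12 and 1.24, and the nuclease gene Exo1 by 1.13 and 0.74. In Xrcc2, CFZ-DOX replicate 3 had 14.4 CPM against 5.35 and 6.44 CPM in the other 2. Xrcc3 was not called with DOX, and its rise of 0.38 with CFZ-DOX (adjusted p = 0.0394) was lost without single libraries and turned to -1.26 under ribosomal protein scaling.

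Rad52, Rbbp8 and Wrn rose with CFZ and did not rise with DOX. Rad52, an annealing protein of recombination, had 16.9, 20.04 and 21.5 CPM with CFZ, 6.53, 6.63 and 8.17 CPM with DOX and 9.66, 9.55 and 12.8 CPM with CFZ-DOX, against 8.71, 10.8 and 10.99 CPM with DMSO. The log2 fold change was 0.93 ± 0.18 (adjusted p = 0.00134) with CFZ, -0.52 ± 0.18 (0.0192, lost without single libraries) with DOX and 0.07 ± 0.18 (0.743) with CFZ-DOX. Rbbp8 (CtIP), which starts resection, rose by 0.58 with CFZ and fell by 0.53 with DOX and by 0.72 with CFZ-DOX. The helicase gene Wrn rose by 0.72 ± 0.22 with CFZ (adjusted p = 0.0226, lost without single libraries), was not called with DOX (-0.47, adjusted p = 0.0694) and fell by 0.98 with CFZ-DOX. The CFZ rises of Rbbp8 and Wrn were not called under ribosomal protein scaling.

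Of the 6 end joining genes, 2 fell with DOX and 3 with CFZ-DOX, or 33.3 and 50%, against 31.3 and 35.7% of all genes. The class median of -0.05 and -0.43 turned to 0.32 and 0.06 under upper-quartile scaling. Xrcc5 (Ku80) had 61.7, 48.6 and 42.5 CPM with DOX, widely spread but all above the 40.1, 39.2 and 40.7 CPM with DMSO, and was not called (0.35 ± 0.18, adjusted p = 0.101). Xrcc6 (Ku70), at 34.7 ± 2.67 CPM with DOX against 36.4 ± 4.31 CPM with DMSO, and Xrcc4, at 6.505 ± 1.66 against 6.65 ± 1.24 CPM (SD, n = 3 each), overlapped DMSO. Prkdc, the catalytic subunit recruited by Ku, averaged 12.9 ± 2.58 CPM with DOX and 11.7 ± 2.97 CPM with CFZ-DOX, against 19.3 ± 2.003 CPM with DMSO (SD, n = 3 each). Its log2 fold changes of -0.58 (adjusted p = 0.0246) and -0.72 (0.00671) were both lost under upper-quartile scaling. The first was also lost without DOX replicate 3 (0.174) and without DMSO replicate 1 (0.0807).

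Dclre1c (Artemis), the nuclease that opens hairpin ends (chr2:3425168-3465167, plus strand), had the largest rise of the 47 genes with CFZ. It had 17.5, 16.2 and 18.8 CPM with CFZ, 3.95, 3.94 and 4.43 CPM with DOX and 4.67, 4.29 and 6.32 CPM with CFZ-DOX, against 7.49, 6.91 and 7.44 CPM with DMSO. The CFZ libraries were all more than 2-fold above DMSO and those with doxorubicin all below it. The log2 fold change was 1.26 ± 0.17 (adjusted p = 9.46e-05) with CFZ, -0.82 ± 0.17 (0.000788) with DOX and -0.51 ± 0.17 (0.015, lost without single libraries) with CFZ-DOX. Lig4, the ligase of end joining, had 6.46, 5.71 and 9.03 CPM with CFZ-DOX, against 11.5, 12.1 and 21.6 CPM with DOX and 16.5, 14.97 and 14.6 CPM with DMSO. It fell by 1.12 ± 0.24 with CFZ-DOX relative to DMSO (adjusted p = 0.000648) and was called with neither single drug.

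In single-strand break and base excision repair, 2 of 4 genes fell with DOX and with CFZ-DOX, where 31.3 and 35.7% of all genes did. The DOX class median of -0.35 turned to 0.02 under upper-quartile scaling. Parp2 had 9.37, 10.2 and 4.95 CPM with DOX and 4.78, 6.07 and 3.29 CPM with CFZ-DOX, against 20.8, 25.1 and 25.8 CPM with DMSO. Its log2 fold changes were -1.55 ± 0.25 and -2.34 ± 0.26 (adjusted p = 9.87e-05 and 1.98e-06), and replicate 3 was the lowest of both drug groups. Its larger relative Parp1, the main sensor of single-strand breaks, had 166.1, 188.0 and 169.4 CPM with DOX, above the 128.0, 142.0 and 145.5 CPM with DMSO, at 0.33 ± 0.16 (adjusted p = 0.0724), and -0.52 under ribosomal protein scaling. Lig3 fell by 0.86 with DOX and by 1.38 with CFZ-DOX, and its partner Xrcc1 was not called, at 33.9 ± 0.982 CPM with DOX against 30.4 ± 1.55 CPM with DMSO (SD, n = 3 each). Rffl overlaps 25.07% of the exon length of Lig3 on the other strand.

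Of the 5 Fanconi genes, which act on DNA crosslinks, 3 fell with DOX and 4 with CFZ-DOX, where 31.3 and 35.7% of all genes did. Fanca rose with CFZ-DOX, where 39.3% of all genes rose. Fancd2, the gene of the monoubiquitinated subunit, averaged 16.4 ± 1.14 CPM with CFZ, 16.1 ± 1.93 CPM with DOX and 12.1 ± 2.37 CPM with CFZ-DOX, against 26.2 ± 1.32 CPM with DMSO (SD, n = 3 each), or log2 fold changes of -0.68, -0.70 and -1.12. Fanca, part of the core ligase, had 41.98, 41.5 and 40.1 CPM with CFZ, 67.4, 75.7 and 67.4 CPM with DOX and 72.0, 88.3 and 66.0 CPM with CFZ-DOX, against 55.1, 56.4 and 60.5 CPM with DMSO. It was below DMSO in all CFZ libraries and above it in all libraries with doxorubicin. The log2 fold change was -0.48 with CFZ (adjusted p = 0.0113), 0.29 with DOX (0.0523) and 0.40 with CFZ-DOX (0.0106), and the CFZ and CFZ-DOX calls were each lost without single libraries. The last became -1.24 under ribosomal protein scaling. Zfp276 overlaps 10.5% of its exon length on the other strand. With DOX the 3 falls, of Fancc, Fancd2 and Fancm, were each lost under upper-quartile scaling.

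Of the 7 nucleotide excision repair genes, 2 fell and 2 rose with DOX, and 2 fell and 3 rose with CFZ-DOX. These shares, 28.6 and 28.6% with DOX and 28.6 and 42.9% with CFZ-DOX, were near the 31.3 and 36.1% and the 35.7 and 39.3% of all genes. The class median of 0.31 in both turned negative under ribosomal protein scaling (-0.53 and -1.33) and, with CFZ-DOX, to -0.03 under library size scaling. Ercc4 (XPF) and Ercc1 encode the subunits of 1 nuclease that cuts 5′ of a lesion, and they diverged. Ercc4 (chr16:12927548-12968481, plus strand) had 4.12, 6.36 and 8.04 CPM with DOX and 5.21, 4.82 and 7.16 CPM with CFZ-DOX, against 26.4, 25.7 and 21.7 CPM with DMSO. It fell by 1.996 ± 0.22 and 2.10 ± 0.23 on the log2 scale (adjusted p = 2.98e-06 and 1.24e-06).

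Ercc1 (chr7:19078703-19090449, plus strand) had 193.7, 169.1 and 133.5 CPM with DOX and 292.9, 287.7 and 207.2 CPM with CFZ-DOX, against 101.3, 125.1 and 95.4 CPM with DMSO. All libraries with doxorubicin lay above DMSO, at 0.62 ± 0.18 (adjusted p = 0.00687) and 1.29 ± 0.18 (1.65e-05), but the sign turned under ribosomal protein scaling, to -0.26 and -0.36. Per length of exon, Ercc4 stood at 0.917 ± 0.292 RPKM and Ercc1 at 53.2 ± 9.72 RPKM with DOX, against 3.66 ± 0.375 and 34.5 ± 5.07 RPKM with DMSO (SD, n = 3 each). The 2 subunits' levels were thus further apart with DOX than with DMSO, whatever the scaling between libraries.

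Ddb1, an adaptor of the CUL4 ubiquitin ligase and part of the damage sensor DDB, was the most abundant of the 47 per length, at 300 ± 56.5 RPKM with DOX and 423 ± 94.0 RPKM with CFZ-DOX, against 190.4 ± 4.70 RPKM with DMSO (SD, n = 3 each). Its CPM in the libraries were 2249, 1986 and 1533 with DOX and 3153, 2955 and 2025 with CFZ-DOX, against 1223, 1249 and 1189 with DMSO. It rose by 0.66 ± 0.19 and 1.15 ± 0.19 on the log2 scale (adjusted p = 0.00745 and 8.34e-05), with the sign turned under ribosomal protein scaling, to -0.24 and -0.51. Its partner Ddb2, a p53 target in human cells, had 3.47, 2.78 and 3.66 CPM with DOX, which overlapped the 2.06, 2.13 and 2.81 CPM with DMSO, and was not called (0.50 ± 0.22, adjusted p = 0.0552). With CFZ-DOX its 0.56 ± 0.22 was called (adjusted p = 0.0337) but was lost without single libraries and became -1.10 under ribosomal protein scaling. Acp2 overlaps 23.83% of the exon length of Ddb2 on the other strand and had 16671 counts over the 12 libraries, against 1111 for Ddb2.

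Xpc, the other sensor of helix distortion, was not called in any of the 3 comparisons, at 16.4 ± 1.28 CPM with CFZ, 15.2 ± 3.27 CPM with DOX and 16.1 ± 3.40 CPM with CFZ-DOX, against 15.4 ± 0.738 CPM with DMSO (SD, n = 3 each). Ercc5 (XPG), the nuclease that cuts 3′ of a lesion, and Xpa, which verifies it, rose with CFZ. Ercc5 had 54.0, 49.2 and 57.7 CPM with CFZ, against 30.4, 24.8 and 26.1 CPM with DMSO, a rise of 0.99 ± 0.14 on the log2 scale (adjusted p = 0.000164). Xpa had 9.94, 10.8 and 10.6 CPM with CFZ, against 6.51, 5.28 and 6.41 CPM with DMSO, a rise of 0.79 ± 0.17 (adjusted p = 0.0033), and no library of either gene overlapped DMSO. With DOX, Xpa fell by 1.22 ± 0.18 (adjusted p = 3.51e-05), and Ercc5 was not called (0.31 ± 0.14, adjusted p = 0.0634). Msh6, the mismatch repair gene, had 33.0, 36.1 and 59.6 CPM with DOX and 42.7, 33.1 and 76.0 CPM with CFZ-DOX, against 137.3, 152.5 and 149.6 CPM with DMSO, or log2 fold changes of -1.77 ± 0.27 and -1.53 ± 0.27. With CFZ it had 77.3, 81.7 and 92.2 CPM, all below DMSO, and fell by 0.81 (adjusted p = 0.0319). This call was lost whichever of the 6 libraries compared was left out. Those fits estimated spread over all libraries left, those with doxorubicin included.

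**Figure D4:**
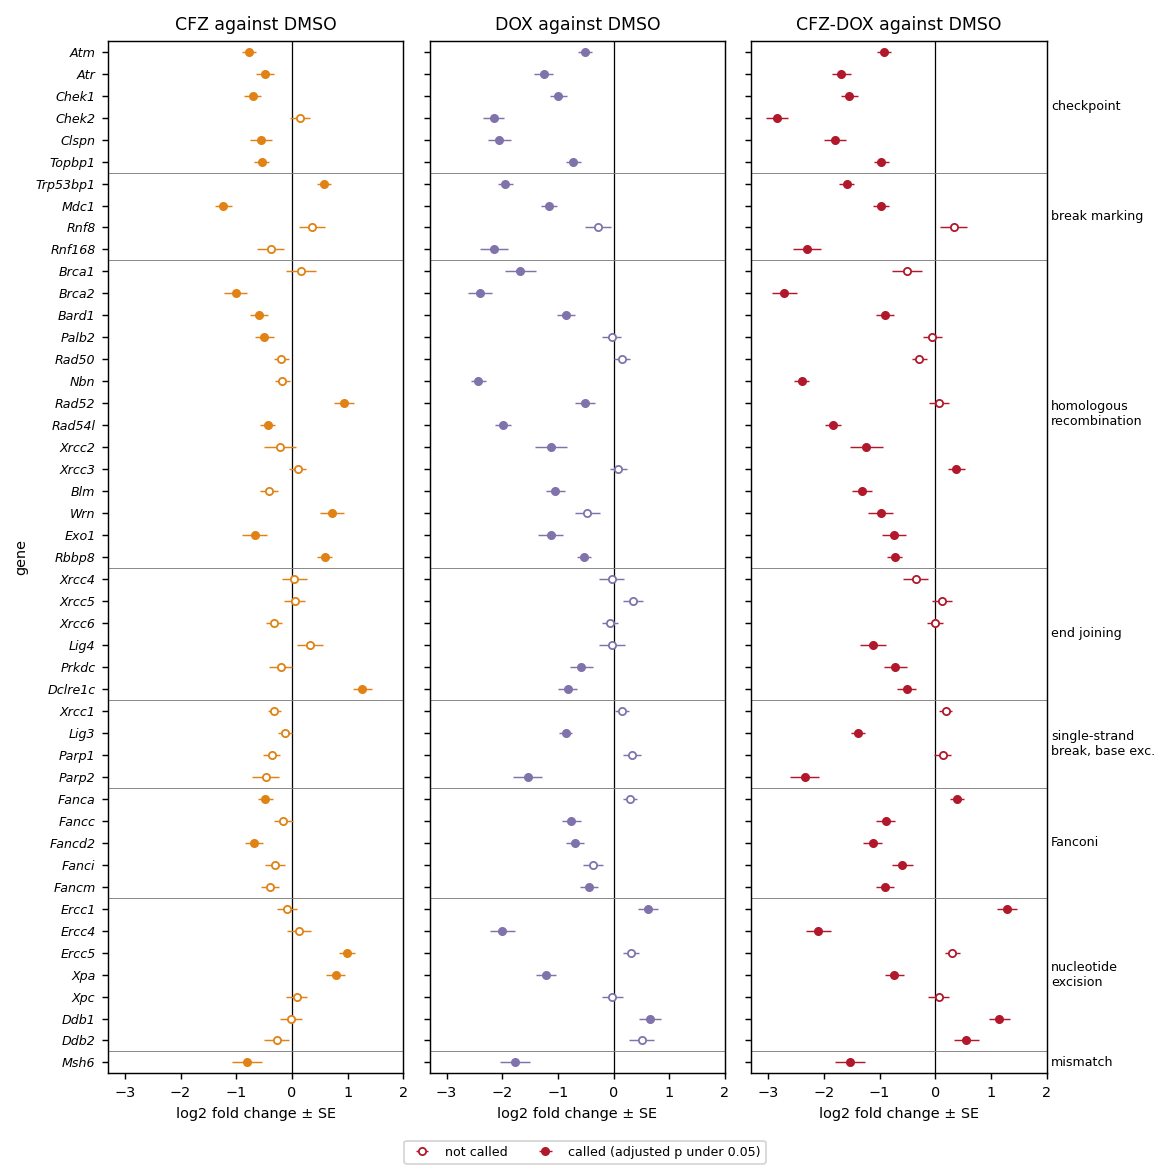
Log2 fold change ± SE of each gene against DMSO for CFZ (left), DOX (middle) and both drugs (right), in the order of roles, with filled points for called genes. Checkpoint genes lie left of 0 with DOX, the Ku genes Xrcc5 and Xrcc6 lie near 0, and 5 genes, among them Dclre1c and Trp53bp1, are called right of 0 with CFZ and left of it with DOX. The share of all genes with such opposite calls was not counted.

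Adding doxorubicin to carfilzomib gave 28 falls and 7 rises in CFZ-DOX against CFZ, where 36.9% of all genes fell and 40.4% rose. The median of the 47 genes was -0.66, against 0.09 over all genes, and 16 fell under all 5 scalings, where 25.3% of all genes did and 13.4% rose. The groups did not overlap for 38 of the 47 genes, against 77.8% of all genes. Chek2 fell by 2.98 ± 0.20, Ercc4 by 2.23 ± 0.23 and Nbn by 2.23 ± 0.14 on the log2 scale (adjusted p = 1.58e-08, 6.55e-07 and 9.81e-09). Ercc1 rose by 1.37, Ddb1 by 1.17 and Fanca by 0.87, and these 3 were at -0.18, -0.40 and -0.67 under ribosomal protein scaling. Trp53bp1 fell by 2.16 and Dclre1c by 1.78. Brca1, Prkdc, Fancd2 and Msh6 lost their calls without single libraries.

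Adding carfilzomib to doxorubicin gave 7 falls and 3 rises in CFZ-DOX against DOX, where 12% of all genes fell and 10.3% rose. These counts were near the shares of all genes. The replicate numbers paired these libraries, and with the number as a block 11 fell and 6 rose, as they also did without replicate 3 of both groups. In an edgeR fit of these 6 libraries alone 0 of the 47 were called, with 6 lower and 3 higher at an unadjusted p under 0.05, against 6 lower and 7 higher called by DESeq2 and 6 and 3 by limma-voom on all 12 libraries. Lig4 fell by 1.09 ± 0.24 (adjusted p = 0.00595) and Lig3 by 0.52 ± 0.12 (0.00919), and only these 2 calls held under all 5 scalings, where 8.34% of all genes fell and 0.763% rose. The groups did not overlap for 12 of the 47, against 31.5% of all genes. Under ribosomal protein scaling 34 of the 47 fell and 0 rose, where 52.6% of all genes fell and 0.763% rose. The falls of Chek2 (0.68), Chek1 (0.55), Atm (0.40), Rad50 and Parp2 and the rises of Rad52 (0.58) and Ercc1 (0.67) were lost without single libraries, and the rises of Rad52 and Ercc1 turned to -0.19 and -0.10 under ribosomal protein scaling.

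For 10 genes the effect of both drugs differed from the sum of the single effects on the log2 scale, tested as an interaction in the same model, where 8.46% of all genes were above and 11.2% below the sum. These 4 above and 6 below are a share near that of all genes. Mdc1, Exo1, Rad54l and Fanca were above the sum and Lig4, Wrn, Ercc5, Dclre1c, Chek2 and Rbbp8 below it. Lig4 had an interaction of -1.42 ± 0.33 (adjusted p = 0.00913), Wrn of -1.23 ± 0.31 (0.0136) and Ercc5 of -0.99 ± 0.20 (0.00404). Under all 5 scalings 3 were below the sum, Lig4, Rbbp8 and Ercc5, and none above it, where 6.58 and 1.5% of all genes were. Wrn, Ercc5, Dclre1c and Rbbp8, which rose with CFZ, were lower in CFZ-DOX than in CFZ. Ercc5, for instance, averaged 53.6 ± 4.25 CPM with CFZ and 33.6 ± 2.98 with CFZ-DOX, against 27.1 ± 2.92 with DMSO (SD, n = 3 each).

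**Figure D5:**
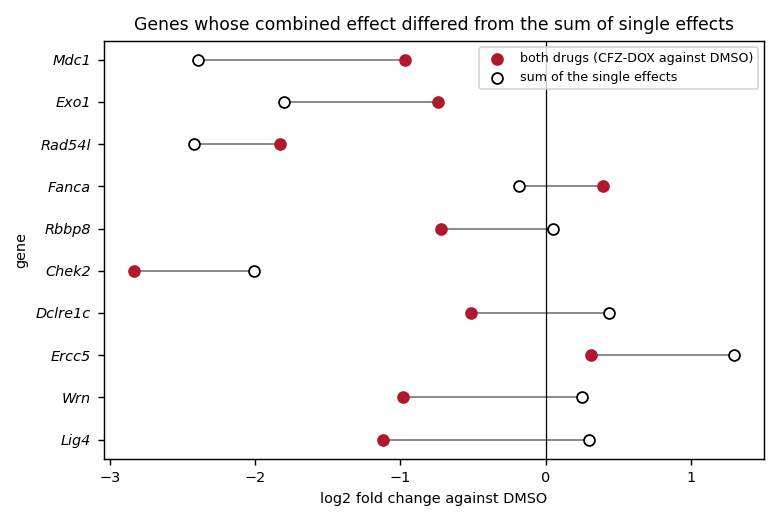
Log2 fold change against DMSO of the 10 genes with a called interaction, as the effect of both drugs (filled) and the sum of the CFZ and DOX effects (open). Mdc1, Exo1, Rad54l and Fanca lie right of their sum and the other 6 left of it, with Mdc1 at -0.97 against -2.39.

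Other genes of the same pathways, from a list of 87 of which 86 were tested, also mostly fell with doxorubicin: 47 fell and 9 rose with DOX, 51 fell and 12 rose with CFZ-DOX, and 21 fell and 6 rose with CFZ. All genes fell and rose in 31.3 and 36.1% of cases with DOX, 35.7 and 39.3% with CFZ-DOX and 14.4 and 14.4% with CFZ. Rif1, which acts with 53BP1 to block resection, fell most, averaging 10.3 ± 2.57 CPM with DOX and 7.56 ± 0.407 CPM with CFZ-DOX, against 113.5 ± 7.01 CPM with DMSO (SD, n = 3 each), or -3.46 ± 0.17 and -3.91 ± 0.17 on the log2 scale. Fancf fell by 2.89 with DOX and 3.41 with CFZ-DOX, Shld1 of the shieldin complex by 2.92 with DOX, at 0.172 CPM against 1.30 CPM with DMSO, and the clamp gene Hus1 fell by 3.05 with CFZ-DOX. H2ax, the histone variant phosphorylated at breaks, had the largest fall with CFZ, at 10.6 ± 2.77 CPM with CFZ against 60.6 ± 5.70 CPM with DMSO (SD, n = 3 each; -2.52 ± 0.23, adjusted p = 3.14e-06). Ung and Wee1 fell by 1.52 and 1.36 with CFZ.

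With CFZ, the translesion polymerase gene Polk rose by 1.502, the base excision gene Ogg1 by 1.33 and the transcription-coupled repair gene Ercc8 by 1.22 on the log2 scale. Ercc8 averaged 17.3 ± 1.67 CPM with CFZ and 2.17 ± 0.479 CPM with DOX, against 7.40 ± 0.180 CPM with DMSO (SD, n = 3 each), so that it rose with CFZ and fell with DOX, as Xpa did. The highest called changes with DOX were Cetn2 (1.03), Shld2 (1.02) and Mad2l2 (0.87), and with CFZ-DOX Neil2 (2.42, at under 1 CPM), Paxx (1.40) and Cetn2 (1.35). None of the 9 rises with DOX or the 12 with CFZ-DOX held under all 5 scalings, where 34 falls did in each, beside 22.3 and 24.8% of all genes.

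Many cell cycle genes also fell. Of 37 S phase genes, 21 fell with CFZ, 16 fell with DOX and 22 fell with CFZ-DOX, and 0, 6 and 3 rose. Over all genes 14.4, 31.3 and 35.7% fell. Under all 5 scalings, doxorubicin alone lowered 8 of the 37 S phase genes, where 22.3% of all genes fell. Both drugs together lowered 10, where 24.8% of all genes fell. These 2 counts were near the shares of all genes. Carfilzomib alone lowered 18 under all 5, where 12% of all genes fell. In no comparison with DMSO did an S phase gene rise under all 5. Under ribosomal protein scaling 36 S phase genes fell with DOX and 37 with CFZ-DOX, and none rose, where 54.3 and 68.4% of all genes fell. The 0 with CFZ was also 0 at an unadjusted p under 0.05 in edgeR and by DESeq2 and limma-voom, but an edgeR fit of the CFZ and DMSO libraries alone called 1 higher, with 2 at an unadjusted p under 0.05. Of 30 mitosis genes, 24 fell in each comparison with DMSO, or 80.0%, and 0 rose with CFZ or DOX in edgeR, also at an unadjusted p under 0.05 and in DESeq2 and limma-voom. The median over mitosis genes was -1.11 for CFZ, -0.93 for DOX and -1.37 for CFZ-DOX, and that over S phase genes -0.53, -0.22 and -0.59. The S phase median with DOX turned to 0.16 under upper-quartile scaling. Of 28 tested p53 targets, 24 rose with CFZ, 12 rose with DOX and 13 rose with CFZ-DOX, and 0 (0 at an unadjusted p under 0.05 and in both other tools), 6 and 9 fell, where 14.4, 36.1 and 39.3% of all genes rose. Under ribosomal protein scaling 7 rose and 13 fell with DOX, where 13.5% of all genes rose and 54.3% fell. With CFZ-DOX 2 rose and 20 fell there, where 11.2% of all genes rose and 68.4% fell. The part of the S phase, mitosis and p53 target genes in the levels of the repair genes was not tested.

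The genes differ widely in length. With DOX the Spearman correlation between the span of a gene on the chromosome and its log2 fold change was -0.05 over the 47 genes and -0.32 over all 16648, and with CFZ-DOX it was -0.05 and -0.36. These are correlations across genes of the same libraries and are given as descriptions. The spans ran from 8.64 kb in Lig4 to 315.6 kb in Xrcc4, and neither was called with DOX.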

How the data were processed

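Polyadenylated RNA of 12 NIH/3T3 libraries was sequenced, 3 for each of CFZ, DOX, CFZ-DOX and DMSO, grouped by sample title. The authors' deposited values are raw counts per gene ID, beside coordinates and exon length. The tools, per the submitters' processing notes, were featureCounts (Subread 2.0.2) after Trimmomatic 0.39 and alignment by STAR 2.7.9a, on the build GRCm39. The strand setting, annotation release and handling of read pairs are not given in the sources used here. Reads of genes that overlap on opposite strands can therefore not be told apart. Symbols came from a table of gene IDs and names, which matched 91.4% of 56980 IDs.

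Genes were kept with filterByExpr (minimum count 10, minimum total 15) and tested with edgeR 4.0.16 in R 4.3.3 (quasi-likelihood F test, robust, TMM scaling, 1 mean per group over all 12 libraries), with Benjamini-Hochberg adjustment over all 16648 genes and calls at an adjusted p under 0.05. SE is the absolute log2 fold change over the square root of F. CPM are TMM-normalised, and RPKM divide them by exon length. A count of 0 would allow up to 3 counts of a library. Replicates of each group differed beyond sampling noise (chi-square per degree of freedom 12.37 to 107.5), so none was counted as a repeat. The fit was tested on simulated data. Promoters are those of RefSeq, build GRCm38.p6, found for 37 of the 47 genes.

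The 47 genes, the gene lists and the tests were chosen with earlier results of these data known. Named with values are 11 fixed genes, the up to 5 highest and 5 lowest called genes without overlap per comparison with DMSO, up to 3 and 3 in the others, and further members of a role where a role is described. Replicate numbers were taken to pair the libraries where the deviations of same-numbered libraries from their group means correlated above 0.1 in every pair. They did in CFZ and DMSO (0.589, 0.48 and 0.555), DOX and DMSO (0.303, 0.355 and 0.182) and CFZ-DOX and DOX (0.701, 0.521 and 0.75), but not in CFZ-DOX and DMSO (lowest 0.0582) or CFZ-DOX and CFZ (lowest 0.0792). Alternatives were 4 other scalings, other filters, a threshold of 0.01, a test against 1.5-fold, DESeq2 1.42.0, limma-voom (limma 3.58.1), the replicate block, fits of the groups compared only and leaving out libraries. The fit without DOX replicate 3 and CFZ-DOX replicate 3 was added after seeing the data.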

Additional observations from a re-analysis of the deposited data

Results flagged for a closer look

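For 10 of the 47 genes the effect of one drug differed with and without the other, by the test of the interaction itself (edgeR, adjusted p under 0.05), and each is given as its log2 interaction, how far CFZ-DOX lay from both single effects added up. The 4 above and 6 below the sum are near the share of all genes, 8.46% above and 11.2% below. Above the sum were Mdc1 (1.42), Exo1 (1.06), Rad54l (0.59) and Fanca (0.58). Below it were Lig4 (-1.42), Wrn (-1.23), Ercc5 (-0.99), Dclre1c (-0.95), Chek2 (-0.83) and Rbbp8 (-0.78). The calls of Rad54l, Fanca, Exo1 and Chek2 were lost when single libraries were left out, with adjusted p up to 0.133, 0.102, 0.0744 and 0.0905. Under ribosomal protein scaling none of the 4 above the sum was called, and Rad54l and Fanca were at -0.11 and -0.11.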

How the results depend on the processing

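Counts are of the 47 repair genes unless all genes are named. A threshold of 0.01 left 6 lower with CFZ (all genes 2827), 2 higher with CFZ-DOX against DMSO, 1 higher and 2 lower in CFZ-DOX against DOX (all genes 1577) and 1 above and 2 below the sum in the interaction (all genes 1393). The 1.5-fold test left 2 higher and 1 lower with CFZ (1489), 0 higher with DOX (0 at an unadjusted p under 0.05), 2 higher with CFZ-DOX, 3 higher in CFZ-DOX against CFZ, 0 and 0 in CFZ-DOX against DOX (384; 1 and 1 unadjusted) and 1 above and 0 below the sum (925; 4 below unadjusted).

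Under library size scaling 4 rose and 9 fell with CFZ, 2 rose with CFZ-DOX, 4 rose in CFZ-DOX against CFZ and 3 were below the sum. Under ribosomal protein scaling 4 rose and 9 fell with CFZ, 0 rose and 44 fell with DOX, 0 and 47 with CFZ-DOX, 0 and 46 in CFZ-DOX against CFZ, 0 and 34 in CFZ-DOX against DOX (all genes 8886), and 0 were above and 14 below the sum (all genes 5452). The counts of 0 there were also 0 at an unadjusted p under 0.05. Under that scaling 54.3% of all genes fell with DOX, 68.4% with CFZ-DOX and 65.2% in CFZ-DOX against CFZ. Under upper-quartile scaling 10 rose with DOX and 14 with CFZ-DOX, 14 rose and 16 fell in CFZ-DOX against CFZ, 7 rose and 2 fell in CFZ-DOX against DOX and 11 were above the sum. Of all genes 48.5% rose there with DOX, 50.9% with CFZ-DOX and 51.8% in CFZ-DOX against CFZ. Size factors of the DESeq2 type gave 6 higher with DOX and 6 higher and 4 lower in CFZ-DOX against DOX. The 1 CPM filter gave 7 higher with DOX and 6 higher and 4 lower in CFZ-DOX against DOX, and no filter gave 2 higher with CFZ-DOX. DESeq2 gave 4 higher with DOX, 7 higher in CFZ-DOX against DOX and 11 above the sum.

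Fits of the groups compared only gave 25 lower with CFZ (all genes 7925), 5 higher with DOX and 0 and 0 in CFZ-DOX against DOX (all genes 1118). The replicate block, in the paired comparisons, gave 6 higher with DOX and 6 higher and 11 lower in CFZ-DOX against DOX. In the interaction, where pairing did not hold across all groups, it gave 9 above the sum (all genes 5031), and it changed no other count by more than 1.5 times. Without DOX replicate 3 and CFZ-DOX replicate 3, 23 fell with CFZ (all genes 7516), 5 rose with DOX, 6 rose and 11 fell in CFZ-DOX against DOX and 13 were above the sum (all genes 5736).

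Fold changes of single genes kept their sign and side of the threshold in 4778 of the values recomputed, passed the threshold only under the alternative in 163, lost it in 397 and turned in 42. Under ribosomal protein scaling they turned, with DOX, for Ddb1 -0.24, Ercc1 -0.26, Xrcc5 -0.54, Parp1 -0.52, Rad50 -0.68, Xrcc1 -0.70, Xrcc3 -0.75 and Fanca -0.57. With CFZ-DOX they were Ercc1 -0.36, Ddb1 -0.51, Ddb2 -1.10, Fanca -1.24, Xrcc3 -1.26, Xrcc5 -1.54, Parp1 -1.51, Xpc -1.56, Rad52 -1.54, Xrcc1 -1.44, Rnf8 -1.28 and Ercc5 -1.33. In CFZ-DOX against CFZ they were Ercc1 -0.18, Ddb1 -0.40, Fanca -0.67, Xrcc5 -1.49, Parp1 -1.05, Ddb2 -0.74, Palb2 -1.10 and Xrcc1 -1.03. In CFZ-DOX against DOX they were Ercc1 -0.10, Rad52 -0.19, Xpc -0.71 and Ddb2 -0.75, and in the interaction Rad54l -0.11 and Fanca -0.11. Under upper-quartile scaling, CFZ-DOX against DMSO turned for Palb2 to 0.44 and Xrcc6 to 0.49, and CFZ-DOX against CFZ for Atm to 0.41, Prkdc to 0.0366, Xpc to 0.52, Fancd2 to 0.11, Fancm to 0.0466 and Topbp1 to 0.12. The cause was not tested.

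Leaving out libraries, CFZ gave 6 to 8 higher and 6 to 23 lower (all genes 3258 to 7516), DOX 2 to 7 higher and 27 to 33 lower (10462 to 12294), and CFZ-DOX 2 to 6 and 29 to 32 (12204 to 13136). CFZ-DOX against CFZ gave 5 to 10 higher and 25 to 31 lower (12574 to 13474), CFZ-DOX against DOX 2 to 6 and 2 to 11 (2701 to 4830), and the interaction 1 to 13 above and 5 to 6 below (2149 to 5736). Depth limits the least abundant genes most, such as Ddb2, with 1111 counts over the 12 libraries.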
